A study of Mus musculus with 6 samples.

Results

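The genes described here coat the lipid droplet or release fatty acids from it, and were chosen by gene symbol as 10 members: the 5 perilipins Plin1 to Plin5, the lipases Pnpla2, Lipe and Mgll, and the lipase regulators Abhd5 and G0s2. All 10 genes were found on the array, through 11 probe sets of the 41345, since G0s2 had 2 probe sets. The study hybridized bulk RNA of 3 transgenic and 3 wild-type (WT) gastrocnemius muscles, 1 array per mouse, to ask how DGAT1, an enzyme of the last step of triacylglycerol synthesis, acts on intramuscular fat. All 6 mice were males aged 3 months, of the strain given as C57 in the labels and as C57BL/6 in the methods, and per the methods they ate chow. The methods describe F1 transgenic mice carrying a porcine DGAT1 cDNA behind a porcine MCK promoter, which drives expression in muscle, and WT mice without it. The sample labels call the same animals a DGAT1 knockout. Whether the 3 transgenic mice came from 1 founder is not given in the sources used here. Mouse Dgat1 had log2 values of 8.09, 7.65 and 7.73 in transgenic replicates 1, 2 and 3 and of 7.96, 7.26 and 7.79 in WT replicates 1, 2 and 3. The groups overlapped, and it is unknown whether the mouse probe set reads the porcine transcript.

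Triacylglycerol is stored in lipid droplets, whose surface is covered by perilipins. Perilipins 1 and 4 are best known from white adipocytes, perilipin 2 coats droplets of most cells, perilipin 3 also occurs free in the cytosol, and perilipin 5 is typical of oxidative tissues, where it links droplets to mitochondria. Hydrolysis runs in steps: adipose triglyceride lipase (Pnpla2) removes the first fatty acid, hormone-sensitive lipase (Lipe) the second, and monoacylglycerol lipase (Mgll) the last. Abhd5, also called CGI-58, activates the first of these lipases, G0s2 inhibits it, and perilipins 1 and 5 bind Abhd5. Several of these genes are targets of the fatty acid receptors of the PPAR family.

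The values are log2 expression values that the authors normalized between arrays, so a difference of 1 is a doubling. Array medians lay between 5.71 and 5.88. Skeletal muscle markers such as Ckm and Acta1 had list means of 12.16 to 12.25 in transgenic and 12.30 to 12.36 in WT mice. The groups were apart on this list mean by a narrow margin, and transgenic means were lower for 10 of 12 genes. By single gene, the groups did not overlap for 1 of 12, Myh7, beside 4.31% of all probe sets lower without overlap. WT replicate 2, highest on the list mean, was highest for Myh1, Myh2 and Myh7 but lowest of the WT mice for Ckm and Acta1. Hepatocyte transcripts such as Alb varied widely among mice of both genotypes. Their list means were 8.03, 8.81 and 8.90 in transgenic replicates 1 and 3 and WT replicate 1 (high) and 4.76 to 6.53 in the others (low). WT replicate 2, at 6.53, lay in between. Its Alb value was 9.31, against 5.54 in transgenic replicate 2 and 6.04 in WT replicate 3. Macrophage markers had list means of 7.39 to 7.87 in transgenic and of 7.16 to 7.39 in WT mice, with means higher in transgenic mice for 7 of 7 genes. In bulk muscle, fewer cells of a type and less RNA per cell cannot be told apart. A gene is called past the study threshold where limma's unadjusted p was under 0.05 and the fold change at least 1.5 either way, which follows the cutoffs of the study. After Benjamini-Hochberg adjustment over all probe sets, limma left 0 probe sets under 0.05, against 1197 (2.9%) by its unadjusted p. The adjusted p was 1 for each of the 11 probe sets of the 10 genes. With the test named in the methods, 0.68% of probe sets met the same cutoffs, Plin4 among them.

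Among the 10 genes, 1 was past the study threshold, the droplet coat gene Plin4, which was lower in transgenic mice. Over all probe sets 1.49% were past it in either direction and 0.636% were past it and lower. The share was 0.574% among probe sets with 1 gene symbol. It was 0.426%, and 0.206% for lower levels alone, among the 13624 of these with a level at or above the array median, where all 10 genes lay. Means were lower in transgenic mice for 6 of the 10 genes and higher for 4, with a median log2 fold change of -0.06, beside -0.01 over all probe sets. The groups did not overlap for 2 of the genes, Plin4 (lower) and Mgll (higher), compared with 7.21% of all probe sets in either direction and 4.31% lower in transgenic mice.

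**Figure D1:**
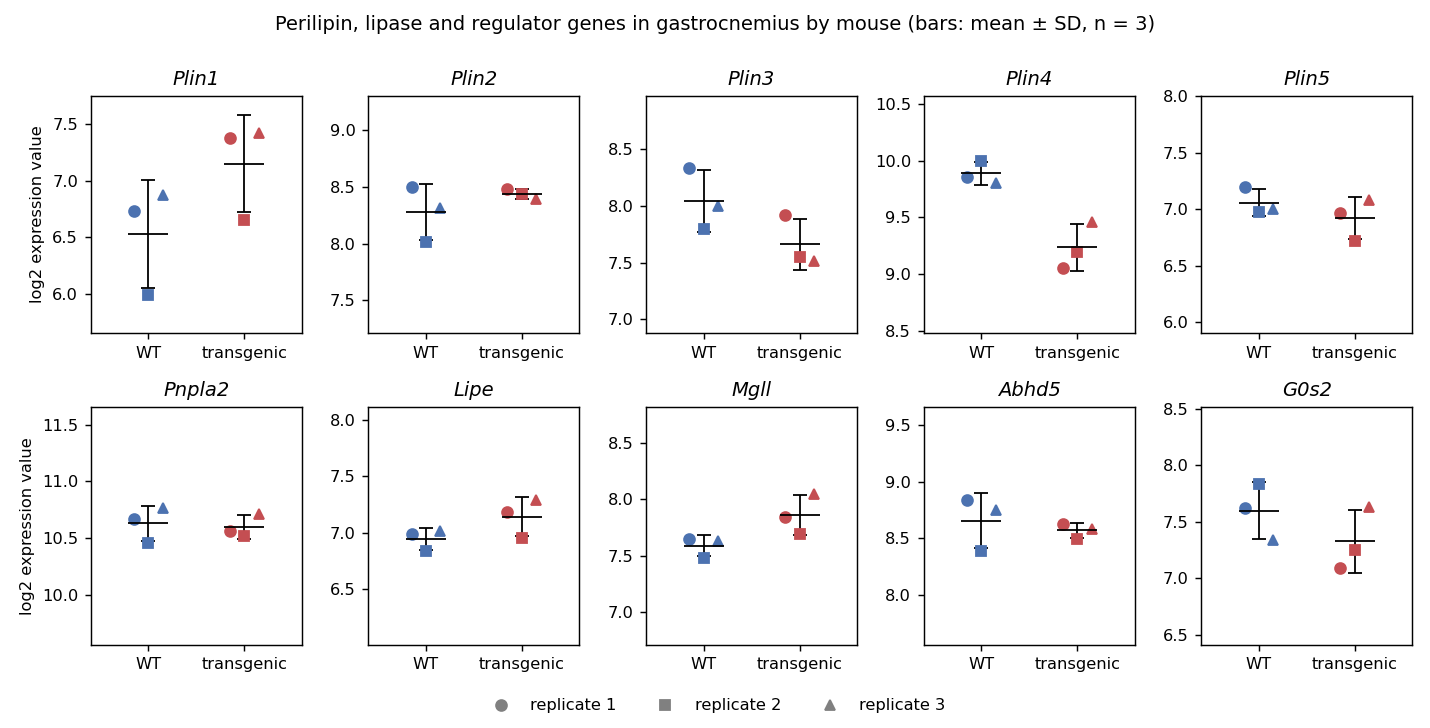
Log2 expression value (vertical axis) of each of the 10 genes in 3 WT and 3 transgenic mice, with black bars for the mean ± SD and 1 symbol per replicate number. Every panel spans the same range of log2 units, and the groups are fully apart for Plin4 and, by a narrow margin, for Mgll.

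Gene positions are those of GRCm38.p6 throughout. Plin4 lies on chr17:56100587-56109948 (GRCm38.p6) on the minus strand, next to Plin5 on the same strand, with 1648 bases between the gene bodies. The 250 bases upstream of a RefSeq transcript start are shown for this pair because one member was past the threshold and its neighbour was not. They are also shown for Plin1, which had the largest difference in the opposite direction. These windows overlap the annotated gene bodies, so the starts used are not the outermost ones. The second window of Plin5 is not shown and held none of the motifs named below. RefSeq sequences of the GRCm38.p6 build are given 5′ to 3′ on the strand of the gene, for Plin4 from chr17:56109783-56110032, for Plin5 from chr17:56117549-56117798 and for Plin1 on chromosome 7 from chr7:79732777-79733026. Capitals mark matches, on either strand, to the 4 short motifs spelled out after the sequences: a core promoter element, the box of the factor NF-Y, an E-box and the half-site of nuclear receptors.
Plin4: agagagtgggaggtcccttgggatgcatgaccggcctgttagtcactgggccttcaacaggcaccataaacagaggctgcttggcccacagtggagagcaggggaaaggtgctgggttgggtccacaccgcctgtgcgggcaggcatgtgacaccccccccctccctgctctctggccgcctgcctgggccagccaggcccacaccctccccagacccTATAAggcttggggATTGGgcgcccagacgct
Plin5: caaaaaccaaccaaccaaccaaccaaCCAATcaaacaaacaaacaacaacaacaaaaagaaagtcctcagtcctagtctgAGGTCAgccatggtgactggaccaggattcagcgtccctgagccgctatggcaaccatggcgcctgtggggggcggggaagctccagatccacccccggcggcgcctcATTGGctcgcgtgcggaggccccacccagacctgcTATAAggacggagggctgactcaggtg
Plin1: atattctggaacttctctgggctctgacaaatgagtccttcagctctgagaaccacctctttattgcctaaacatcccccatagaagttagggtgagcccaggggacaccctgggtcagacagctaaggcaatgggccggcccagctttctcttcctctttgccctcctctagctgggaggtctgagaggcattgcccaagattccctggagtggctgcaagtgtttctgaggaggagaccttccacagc
Plin4 and Plin5 both had the core promoter element TATAA on the given strand, starting 32 and 27 bases before the transcript start, and the other 8 genes had none. Of 32851 mouse promoter windows of this length, 22.8% held it. Plin5 also had the nuclear receptor half-site AGGTCA 170 bases before the start, and Plin2 and Abhd5 had 1 each on the opposite strand, where 14.0% of all windows held 1 or more. No window of the 10 genes held the exact DR1 element, a direct repeat of this half-site with 1 base between the copies, which was in 0.0335% of all windows. The Plin1 window held none of the motifs searched. The E-box CACGTG was found for Lipe and Mgll, and in 6.02% of all windows. The NF-Y box CCAAT was found for 4 of the 10 genes, Plin2 to Plin5, in 4 of their 13 windows, and in 33.8% of all windows. These matches are letters in a window and do not show binding.

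Plin4, whose protein coats small nascent droplets, had log2 values of 9.05, 9.20 and 9.46 in the 3 transgenic mice and of 9.86, 10.002 and 9.81 in the 3 WT mice. Every transgenic mouse lay below every WT mouse, and the gap between the highest transgenic and the lowest WT value was narrower than the range within the transgenic group. Means were 9.24 ± 0.21 (SD, n = 3) and 9.89 ± 0.10 (SD, n = 3), so the transgenic level was 0.636 of that in WT mice (95% confidence interval 0.487 to 0.830). The log2 fold change was -0.65 (standard error 0.16, unadjusted p = 0.00511 and adjusted p = 1 from limma). An exact permutation test of Plin4 gave p = 0.1 (two-sided), the smallest p that groups of this size can reach. By limma's p it ranked 99 of all 41345 probe sets and 22 of the 23521 with 1 gene symbol. Without transgenic replicate 1, its lowest mouse, the log2 fold change was -0.56 and fell short of the fold minimum. Among the mice with high hepatocyte markers (2 transgenic, 1 WT) the log2 fold change was -0.60 and among those with low markers (1 transgenic, 2 WT) it was -0.71, neither past the threshold. With a lone mouse in 1 arm, which is assumed to vary like the others, these values do not settle the part of hepatocyte content.

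Plin1 (chr7:79721164-79732904), the perilipin that controls lipase access in fat cells, differed in the opposite direction, at 7.38, 6.66 and 7.42 in transgenic and 6.73, 5.99 and 6.87 in WT mice. The groups overlapped because transgenic replicate 2 lay below WT replicates 1 and 3, and WT replicate 2 was far below the rest. Means of 7.15 ± 0.43 (SD, n = 3) and 6.53 ± 0.47 (SD, n = 3) gave a 1.54-fold difference (95% confidence interval 0.931 to 2.55), not past the threshold (unadjusted p = 0.0820 and adjusted p = 1 from limma). Its spread within groups, a pooled SD of 0.45, exceeded that of 95.3% of the probe sets with 1 gene symbol and a level at or above the array median, whose median SD was 0.19. Plin1 was past the threshold without transgenic replicate 2, at a log2 fold change of 0.87. On the high and low sides of the hepatocyte split, each again with 1 mouse in an arm, the values were 0.67 and 0.23.

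Plin3 (chr17:56278962-56290511), which moves from the cytosol to new droplets, was lower in transgenic mice by its mean but not past the threshold. Its values were 7.92, 7.55 and 7.51 in transgenic and 8.34, 7.79 and 8.003 in WT mice. Transgenic replicate 1 lay above WT replicate 2, and the other 2 transgenic mice lay below all WT mice. The transgenic level was 0.766 of that in WT mice (95% confidence interval 0.552 to 1.06, unadjusted p = 0.0967 from limma). This log2 fold change kept its sign when any 1 mouse was left out, between -0.51 and -0.24.

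Plin2 (chr4:86626910-86670217), the general droplet coat whose protein follows the amount of stored lipid in many cells, had values of 8.48, 8.44 and 8.39 in transgenic and 8.50, 8.01 and 8.31 in WT mice. WT replicate 1 was the highest of all 6 mice and WT replicate 2 the lowest, so the WT range enclosed that of the transgenic mice. The fold change was 1.12 (95% confidence interval 0.850 to 1.47).

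Plin5 (chr17:56111597-56117606), which tethers droplets to mitochondria in oxidative muscle, had values of 6.97, 6.71 and 7.09 in transgenic and 7.19, 6.98 and 7.00 in WT mice. The ranges overlapped, with transgenic replicate 3 above 2 of the 3 WT mice. The transgenic level was 0.912 of that in WT mice (95% confidence interval 0.701 to 1.19).

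**Figure D2:**
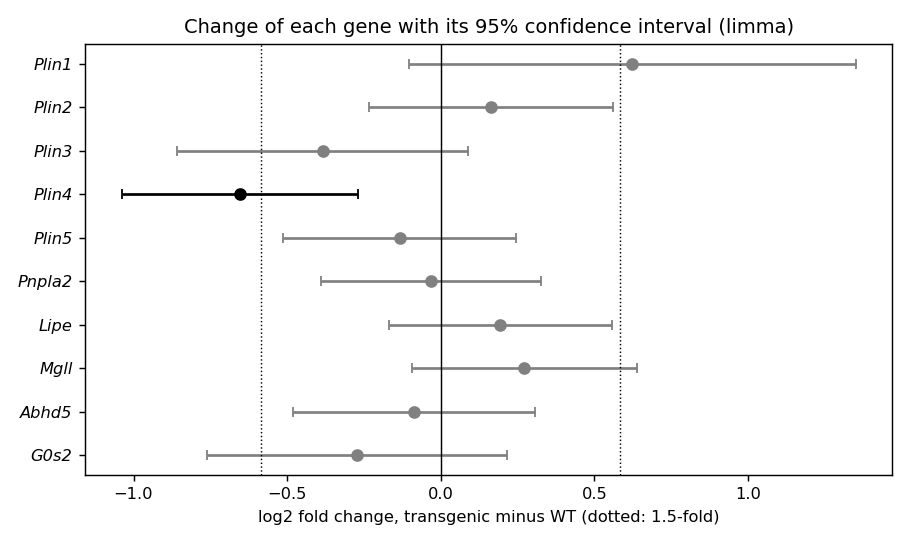
Log2 fold change of each of the 10 genes, transgenic minus WT (horizontal axis), with bars for limma's 95% confidence interval and dotted lines at a 1.5-fold change. The interval of Plin4, in black, lies below 0, and the intervals of the other 9 genes cross 0.

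Whether Plin4 changed differently from the other perilipins was tested on the difference of log2 values within each mouse, for 4 pairs beside 2 pairs of lipase genes. Plin4 is the member past the threshold in these same data, so the separation of its own groups enters each of the 4 pairs. Plin4 minus Plin5, the genomic neighbours, was 2.08, 2.48 and 2.38 in transgenic and 2.67, 3.03 and 2.81 in WT mice. All transgenic mice were below all WT mice, a difference of changes of -0.52 (exact permutation test, two-sided, p = 0.1, adjusted p = 0.2 over the 6 pairs). For Plin4 against Plin2 the difference of changes was -0.82 and against Plin1 it was -1.28, again without overlap and with the same p-values. For Plin4 against Plin3 it was -0.27, with overlapping groups (exact permutation test, p = 0.5, adjusted p = 0.6). With an exact p that cannot go below 0.1 in this design, none of these pairs could pass 0.05.

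The lipase of the first step, Pnpla2 (chr7:141455188-141460743), had nearly the same values in both groups, 10.56, 10.52 and 10.71 in transgenic and 10.67, 10.45 and 10.76 in WT mice. Its transgenic level was 0.979 of that in WT mice (95% confidence interval 0.764 to 1.25), and the sign of its log2 fold change turned without transgenic replicate 2 or WT replicate 3. The pooled SD within groups was 0.13, and 22.8% of the probe sets at or above the median level had a smaller one.

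Lipe (chr7:25379527-25398486), the diacylglycerol lipase of the second step, had values of 7.18, 6.95 and 7.29 in transgenic and 6.99, 6.84 and 7.01 in WT mice. Transgenic replicates 1 and 3 were above every WT mouse and transgenic replicate 2 was not. The fold change was 1.14 (95% confidence interval 0.890 to 1.47).

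Mgll (chr6:88724412-88828360), which releases the last fatty acid and also breaks down the endocannabinoid 2-arachidonoylglycerol, had values of 7.84, 7.69 and 8.05 in transgenic and 7.65, 7.48 and 7.63 in WT mice. Every transgenic mouse was above every WT mouse, but transgenic replicate 2 was only just above WT replicate 1. The difference was 1.21-fold (95% confidence interval 0.938 to 1.56, unadjusted p = 0.121 and adjusted p = 1 from limma), short of both parts of the threshold. The exact permutation test of Mgll gave p = 0.1 (two-sided).

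Abhd5 (chr9:122351616-122381524), the coactivator of Pnpla2, had values of 8.63, 8.50 and 8.58 in transgenic and 8.84, 8.38 and 8.75 in WT mice. The transgenic values lay within the WT range, and the fold change was 0.942 (95% confidence interval 0.716 to 1.24).

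G0s2, the inhibitor of Pnpla2, lies on chr1:193272160-193273188 (GRCm38.p6). On its brighter probe set the values were 7.09, 7.25 and 7.63 in transgenic and 7.62, 7.84 and 7.34 in WT mice, with overlapping groups. The transgenic level was 0.828 of that in WT mice (95% confidence interval 0.590 to 1.16, unadjusted p = 0.229 from limma). The dimmer probe set of G0s2 gave 5.72, 5.57 and 5.67 in transgenic and 5.85, 5.81 and 5.44 in WT mice, a fold change of 0.964. The balance of the lipase to its regulators was compared within mice. Pnpla2 minus G0s2 differed by 0.24 between groups (exact permutation test, p = 0.4, adjusted p = 0.6) and Pnpla2 minus Abhd5 by 0.06 (exact permutation test, p = 0.6, adjusted p = 0.6), and both pairs overlapped.

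Plin1, Lipe, Plin4 and G0s2 are abundant in adipocytes, so adipocyte markers were set beside the members. Transgenic means were higher for Plin1 and Lipe but lower for Plin4 and G0s2, at log2 fold changes of -0.65 and -0.27. For Plin4 and the brighter G0s2 probe set, WT replicate 2 was the highest mouse. None of the 10 measured markers passed the threshold (0 of 10), and transgenic means were the higher ones for 9, at a median log2 fold change of 0.12. Their list mean was 7.82, 7.58 and 7.96 in transgenic and 7.62, 7.31 and 7.99 in WT mice. WT replicate 2 was lowest for this list, for Plin1, for Lipe and for Mgll, whereas WT replicate 3, highest for the list, was below transgenic replicates 1 and 3 for each of the 3 genes. Single markers did not share an order: the adipokine gene Adipoq was 6.95, 6.24 and 6.64 in transgenic and 6.33, 6.51 and 6.76 in WT mice, with WT replicate 2 above transgenic replicate 2 and WT replicate 1. The resistin gene Retn had a log2 fold change of 0.48, Cebpa of 0.26 and Acvr1c of -0.20, none past the threshold. The lysosomal macrophage marker Cd68 was past it and higher, 1.56-fold, a call lost with the test named in the methods, on either side of the hepatocyte split and without transgenic replicate 3, WT replicate 1 or WT replicate 2. In the same list of 7 genes, 4 were higher without overlap, beside 7.21% of all probe sets without overlap in either direction. These were Cd68, Csf1r (1.27-fold), Lyz2 (1.38-fold) and Itgam (1.26-fold). Cd163 (1.04-fold), Mrc1 (1.17-fold) and Adgre1 (1.265-fold) overlapped. The part of adipocyte or macrophage content in the differences of Plin1, Lipe, Mgll, Plin4 and G0s2 was not tested.

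**Figure D3:**
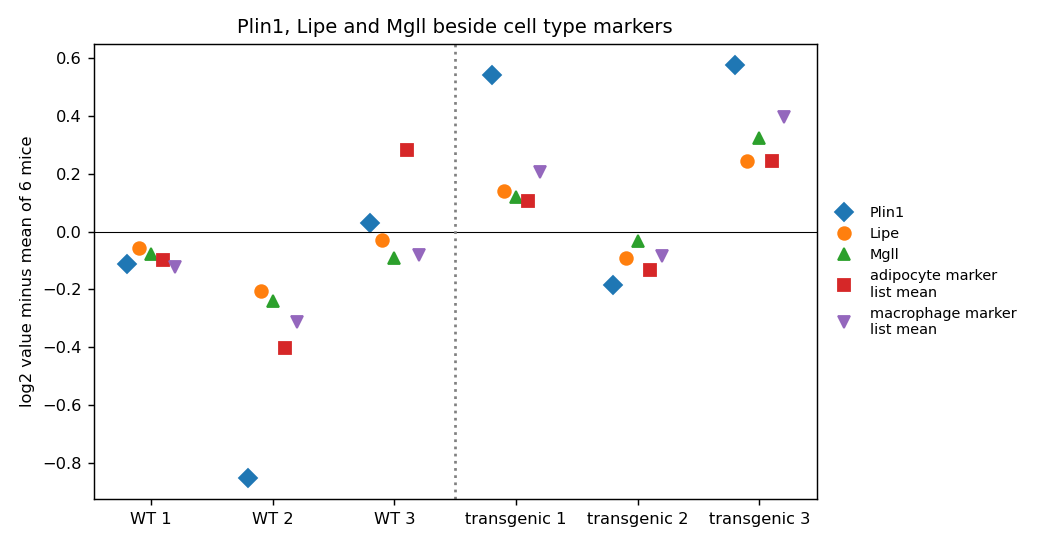
Log2 values of Plin1, Lipe and Mgll and list means of adipocyte and macrophage markers in each mouse, each minus its own mean over the 6 mice (vertical axis, log2 units). All 5 are lowest in WT replicate 2, and the adipocyte list is at its highest in WT replicate 3.

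Other cell types were set beside the members in the same way. Brown adipocyte markers had a median log2 fold change of 0.05 over 5 genes, with Cidea and Ucp1 highest in transgenic replicate 3, at 6.88 and 6.34, against 5.57 to 5.88 and 4.90 to 5.46 in the other mice. Zic1, of the same list, had a log2 fold change of -0.24 without overlap of the groups. Endothelial markers had a median of 0.08 over 6 genes, with Emcn at 0.25. Skeletal muscle markers had -0.09 over 12 genes, 10 of them with lower transgenic means, and the slow myosin Myh7 was at -0.33. None of these genes was past the threshold.

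By profile over the 6 mice, the 3 genes most like Plin4 among 13623 probe sets were Ubap1l, Ppara and Pik3r1, with root mean square differences of centred log2 values of 0.05, 0.08 and 0.09. Ppara, which encodes the fatty acid receptor PPARα, had values of 7.17, 7.33 and 7.65 in transgenic and 7.93, 8.08 and 7.73 in WT mice. As for Plin4, transgenic replicate 1 was lowest, transgenic replicate 3 highest of its group, and WT replicate 2 highest of all. Pik3r1, a regulatory subunit of phosphoinositide 3-kinase, was at 0.681 of the WT level and Ppara at 0.691, both short of the fold minimum, and Ubap1l at 0.660, past the threshold. These genes were picked for their likeness to Plin4, so their differences are a description. The 3 genes most like Plin1, the only member with a range over 1, were the MHC class II gene H2-Ab1, the nuclear receptor gene Nr4a1 and Neurl3, with differences of 0.10, 0.10 and 0.11. Nr4a1 was at 10.96, 10.31 and 10.93 in transgenic and 10.22, 9.44 and 10.19 in WT mice, and WT replicate 2 was lowest, as for Plin1. Unlike Plin1, Nr4a1 was past the threshold, 1.72-fold higher without overlap, a call lost with the test named in the methods. H2-Ab1 and Neurl3 were not past the threshold.

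**Figure D4:**
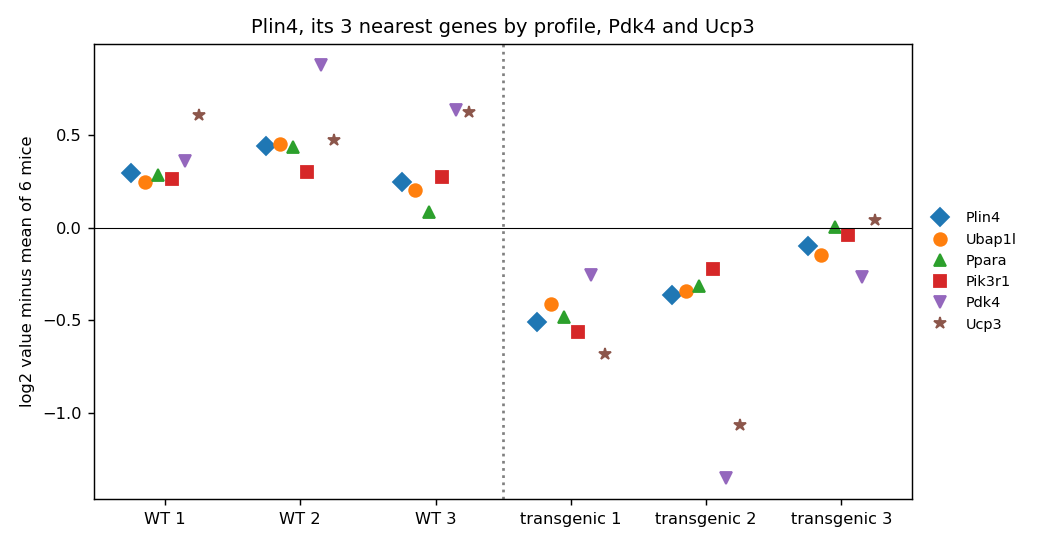
Log2 values of Plin4, of the 3 genes nearest to it by profile, and of Pdk4 and Ucp3 in each mouse, each minus its own mean over the 6 mice (vertical axis, log2 units). Plin4 and Ubap1l lie close together in every mouse, and Pdk4 and Ucp3 have a wider range with their lowest value in transgenic replicate 2.

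Of 20 measured PPAR targets outside the perilipins, Ucp3 and Pdk4 were past the threshold, both lower, and 13 had lower means, with a median log2 fold change of -0.08. Their transgenic levels were 0.455 and 0.420 of those in WT mice, and that of Mlycd, which encodes malonyl-CoA decarboxylase, was 0.684, short of the fold minimum. Plin4 was lowest in transgenic replicate 1, while Pdk4 (10.3), Ucp3 (8.14) and Mlycd (7.16) were lowest in transgenic replicate 2. Plin2 and Plin5, also known as targets of these receptors, were not past the threshold.

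A list of genes for other lipid droplet proteins also held further lipid hydrolases, such as Pnpla3 and Ddhd2. Of the 29 genes measured, 0 were past the threshold, 15 had higher and 14 lower means, and the median log2 fold change was 0.03. The smallest p-values belonged to Fitm2, which buds droplets from the endoplasmic reticulum (-0.23), the droplet fusion gene Cidea (0.46) and Tmem43 (0.29). Of 14 genes of triacylglycerol synthesis 0 were past the threshold, with a median of -0.02. Lpin1, a phosphatidate phosphatase, was at 0.717 of the WT level without overlap of the groups (unadjusted p = 0.0194 and adjusted p = 1 from limma), Gpat3 at 0.818, and Agpat2 was 1.30-fold higher, both without overlap.

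Beta-adrenergic and protein kinase A signaling activates Lipe and phosphorylates perilipin 1 in adipocytes. Of 13 measured genes of this pathway 0 passed the threshold. Transgenic means were the lower ones for 9 of them, at a median log2 fold change of -0.06. The adenylyl cyclases Adcy6 and Adcy9 had -0.25 and -0.24, and the phosphodiesterase Pde4d -0.19, without overlap of the groups.

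Of the 10 genes next to Plin4 on chromosome 17, 5 on each side, 9 were measured and 0 were past the threshold. Their log2 fold changes ran from -0.20 for Ubxn6 to 0.35 for Lrg1, with a median of -0.04. Hdgfl2, whose end overlaps that of Plin4 in the annotation, had -0.04 and Plin5, on the other side, -0.13. Lrg1, which encodes a secreted glycoprotein, was 8.48 in transgenic replicate 3 and 7.16 to 7.64 in the other mice. Among the genes measured on this stretch, only Plin4 was past the threshold.

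**Figure D5:**
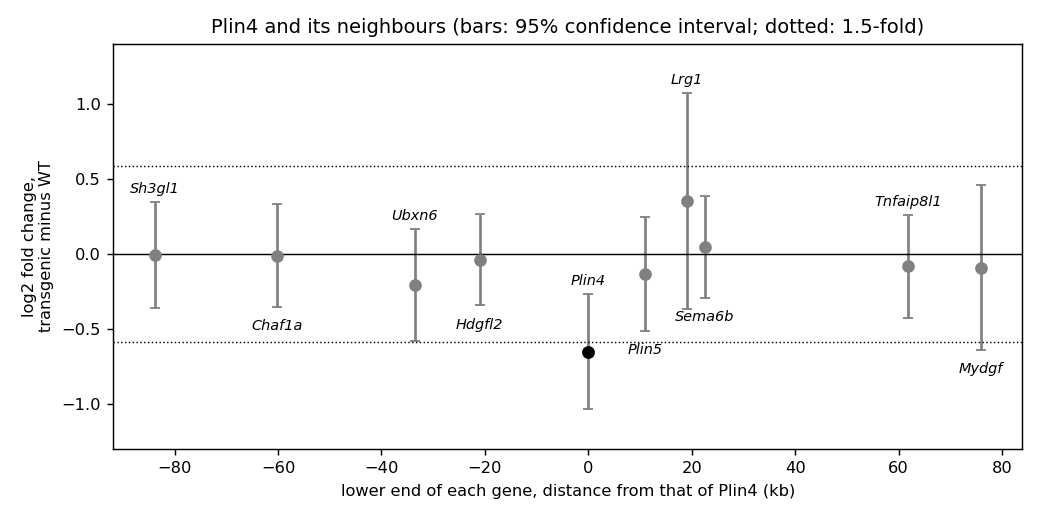
Log2 fold change, transgenic minus WT (vertical axis), of Plin4 and the 9 measured genes around it against the distance between the lower ends of the genes in kb, with bars for limma's 95% confidence interval and dotted lines at a 1.5-fold change. The Plin4 value, in black, lies beyond the lower dotted line and the others lie between the lines.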

How the data were processed

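RNA of 1 gastrocnemius muscle per mouse was hybridized by the authors to Affymetrix mouse gene ST arrays. The deposited values are log2 expression values per probe set, normalized between arrays by the authors; RMA is named in the submitters' processing notes, and the methods name GeneSpring for normalization and filtering. RMA pools the probes of a probe set and compresses differences of dim ones. Depth does not apply to arrays, and 3 mice per group limit the precision. Probe sets were named from the platform annotation: 23521 of 41345 carry 1 gene symbol, 1820 several and 16004 none. A gene was represented by its brightest probe set with that symbol alone.

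Transgenic and WT mice were compared with limma 3.58.1 in R 4.3.3 on all probe sets, with Benjamini-Hochberg adjustment, after a test on simulated data. In the simulation, 175 of 200 probe sets with a 2-fold change were past the study threshold, and so were 958 unchanged ones. The real data had 618 past it, so a call by this threshold alone can be a false one. The study threshold combined unadjusted p below 0.05 and a change of 1.5-fold or more. Single values were compared by exact permutation tests over the 20 assignments of the 6 mice. Named were all 10 members, the genes of each other list past the threshold or with its smallest p-values, the 5 genes on each side of Plin4, and the 3 genes nearest in profile to a member past the threshold or with a range of at least 1. The members and lists were chosen with earlier results of these data known. Alternatives were the methods' t-test, an intensity trend, arrayWeights, quantile and median normalization, filters on probe sets, each mouse left out, a replicate block and, chosen after seeing the data, the mice with high or with low hepatocyte markers alone. Upstream windows came from RefSeq (GRCm38.p6), with 13 windows for the 10 genes. List genes without a probe set of their own were not used here.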

Additional observations from a re-analysis of the deposited data

How the results depend on the processing

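The count of 1 member past the study threshold (Plin4) was 0 with arrayWeights, where Plin4 had a log2 fold change of -0.55, 0 among the mice with low hepatocyte markers (1 transgenic, 2 WT) and 2 (Plin1 and Plin4) with the replicate block. Among the mice with high hepatocyte markers (2 transgenic, 1 WT) it was 1, Plin1 in place of Plin4. This split was chosen after seeing the data, and its lone mouse in an arm is assumed to vary like the others, so these gains and losses of calls are descriptions. It was 0 to 2 when 1 mouse was left out: 0 without transgenic replicate 1, and 2, with Plin1, without transgenic replicate 2. Plin4 kept its sign in all 16 alternatives, from -0.77 to -0.55. As its groups did not overlap, leaving out, splitting or weighting the mice could not have turned that sign. With arrayWeights, WT replicate 3 had a weight of 5.15, against 0.46 and 0.37 for WT replicates 1 and 2. The WT mean of that setting therefore rested mostly on 1 mouse. Mice of the same replicate number did not all deviate together, with correlations of deviations of 0.33, 0.40 and -0.17 for numbers 1, 2 and 3, so the numbers were not taken to pair the mice. Over all probe sets 618 were past the threshold, against 2610 with arrayWeights, 281 by the methods' t-test, 174 with probe sets of 1 gene symbol alone, 146 without dim probe sets, 921 with the replicate block, 2848 and 1350 among mice with high and low hepatocyte markers, and 732 to 1335 with 1 mouse left out. Other list genes past the threshold numbered 3, but 11 with arrayWeights and 2 to 5 with 1 mouse left out, with 5 without transgenic replicate 2 and 5 without WT replicate 3. Signs turned for the dimmer G0s2 probe set with arrayWeights (0.16) and for Plin2 among the mice with high hepatocyte markers (-0.065). With 1 mouse left out, log2 fold changes ran from -0.12 to 0.037 for Pnpla2, from -0.22 to 0.0039 for Abhd5, from -0.18 to 0.022 for the dimmer G0s2 probe set and from -0.016 to 0.10 for Pnpla2 minus Abhd5. The cause of these shifts was not tested.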
